A study of Mus musculus with 6 samples.

Results

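Pancreatic islets are entered by autonomic and sensory axons, which run in from the surrounding tissue, and by the Schwann cells that wrap those axons and form a sheath at the islet edge. The genes described here are 8 genes of these nerve elements: Prph, Grp, Nacad and Reep1 as genes of neurons and axons, and Sox10, S100b, Ngfr and Gfap as genes of Schwann cells and other glia. All probes of these genes were taken, 10 in all, and 7 of the 8 genes were among the 19021 genes whose probe was well above background on both arrays of at least 1 group. The members were chosen by their own levels and background flags on these 6 arrays, so their differences between groups are given as a description and without a p-value. How many of them passed the threshold used for all genes is given only beside the share of all genes that passed it, and nothing is read from that count. P-values are given only for other genes.

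Axons carry their cell bodies' transcripts only in part, so that RNA of an isolated islet holds nerve transcripts from the few ganglion neurons that stay attached and from the axons themselves. Peripheral neurons build their axons on neurofilaments and peripherin, release acetylcholine, noradrenaline or neuropeptides, and depend on neurotrophic factors made by their targets. Schwann cells descend from the neural crest, keep Sox10 throughout life, and respond to islet damage with more Gfap. In bulk RNA such as this, fewer cells of a type and less RNA per cell cannot be told apart.

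Messenger RNA was measured on 6 Agilent 1-colour microarrays, 2 per group, from islets of mice of ICR background, labelled male and aged 16 weeks. All 3 groups carried floxed alleles of Trsp, the gene of the transfer RNA that inserts selenocysteine into selenoproteins. Trsp-Ins1KO (TrspFlox/Flox::Ins1-Cre) and Trsp-RIPKO (TrspFlox/Flox::RIP-Cre) islets carried in addition a Cre transgene under the control of Ins1 or of the rat insulin promoter, while TrspFF (TrspFlox/Flox) islets had no Cre. Both promoters serve in beta cells, and rat insulin promoter lines are also known to recombine in some neurons of the brain. A Cre effect and the loss of Trsp cannot be told apart with these controls. No label states that separate mice gave the 2 arrays of each group, so the p-values cover only array-to-array spread, in part perhaps technical.

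Levels below are log2 of the processed intensity over the array's own 75th percentile, so that 0 is as bright as that percentile and each unit is a factor of 2. That percentile was lowest in Trsp-Ins1KO, at 122 and 111 intensity units, against 215 and 203 in Trsp-RIPKO and 247 and 218 in TrspFF. The scanner called 52.2% and 51.4% of probes well above background in Trsp-Ins1KO, against 57.9% and 61.0% in Trsp-RIPKO and 57.9% and 57.5% in TrspFF. The dimmest level so called was -3.59 and -3.39 in Trsp-Ins1KO, -4.09 and -4.38 in Trsp-RIPKO, and -4.41 and -4.32 in TrspFF, so a faint transcript could drop out in Trsp-Ins1KO at a level still called in the others. Trsp-Ins1KO and TrspFF shared slide 1, and Trsp-RIPKO was alone on slide 2, where a slide effect and its genotype cannot be told apart. All 10 beta-cell markers, among them Ins1 and Ins2, were well above background on all 6 arrays, with a summed level of 5907 and 6479 times the 75th percentile in Trsp-Ins1KO, 3628 and 3888 times in Trsp-RIPKO, and 3272 and 3668 times in TrspFF.

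Labels and data were at odds on 2 points, and all results rest on arrays that these points touch. In the authors' deposited table the columns named TrspFF hold the values of the scanner files of Trsp-Ins1KO and the columns named Trsp-Ins1KO those of TrspFF, while the Trsp-RIPKO columns hold their own. Directions here follow the scanner files, and every sign of Trsp-Ins1KO against TrspFF turns round if the table's names are the right ones. Xist, the RNA that silences the second X chromosome of female cells, was not well above background on either Trsp-Ins1KO array (levels -5.79 and -5.60) but was so on both Trsp-RIPKO arrays (1.05 and 1.34) and both TrspFF arrays (-0.56 and -0.32). The Y-linked Ddx3y was well above background on all 6 arrays, with levels of 0.75 and 0.51, of -0.53 and -0.44, and of 0.96 and 0.78 in the same order, although all mice are labelled male. Xist thus divides Trsp-Ins1KO from both other groups. Trsp-RIPKO and TrspFF differed as well, with Xist higher and Ddx3y lower in Trsp-RIPKO. The Y-linked Eif2s3y was lower there too, at 0.37 and 0.32 against 1.53 and 1.41 in TrspFF. A difference in the sex of the tissue and the genotype cannot be told apart in any comparison of these groups.

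The stretches before the transcription start of the members are shown because several members shared a pattern of levels across the arrays. RefSeq's promoter table for GRCm38.p6 held entries for Prph, Nacad, Reep1, S100b, Ngfr and Gfap, 6 of the 8. The 250 bases before the start are printed, 5′ to 3′ on the gene's own strand, for the 3 of them with the widest gap between groups: Prph at chr15:99054924-99055173 on the plus strand, Nacad at chr11:6606055-6606304 on the minus strand, and Reep1 at chr6:71707431-71707680 on the plus strand. Capitals mark matches on either strand to TATAAA (the TATA box) and to ACAANG (the core that SOX factors such as Sox10 bind), and a paired homeodomain core was searched for too.
Prph: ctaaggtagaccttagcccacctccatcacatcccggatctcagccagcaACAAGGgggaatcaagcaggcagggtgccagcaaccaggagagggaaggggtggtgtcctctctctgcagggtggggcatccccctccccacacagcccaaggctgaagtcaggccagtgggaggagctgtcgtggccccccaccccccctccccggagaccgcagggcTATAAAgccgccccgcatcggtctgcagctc
Nacad: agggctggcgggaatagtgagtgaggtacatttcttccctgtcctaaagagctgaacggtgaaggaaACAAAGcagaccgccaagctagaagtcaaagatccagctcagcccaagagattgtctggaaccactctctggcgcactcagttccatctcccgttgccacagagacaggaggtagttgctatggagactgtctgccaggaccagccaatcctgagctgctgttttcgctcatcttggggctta
Reep1: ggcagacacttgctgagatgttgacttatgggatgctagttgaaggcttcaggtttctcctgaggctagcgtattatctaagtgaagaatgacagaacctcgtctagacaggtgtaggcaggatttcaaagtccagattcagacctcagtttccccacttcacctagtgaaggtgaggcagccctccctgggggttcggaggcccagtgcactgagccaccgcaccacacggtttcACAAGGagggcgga
Prph had a TATA box whose first base lies 31 bases before the start, and Nacad and Reep1 had none, while 12.4% of all 32841 promoters in the table hold one in the same window. A match to ACAANG began 200 bases before the start of Prph, 183 bases before that of Nacad and 14 bases before that of Reep1. S100b had one too, at 250 bases, and Ngfr and Gfap had none, in a table where 36.3% of promoters hold this short motif. The paired homeodomain core was in none of the 6 windows and in 0.463% of all promoters. No 2 matches overlapped, and a match says only that the letters are there.

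Among the 4 neuron and axon genes, Prph encodes peripherin, an intermediate filament of peripheral and enteric neurons. Its level was -4.31 and -5.42 in Trsp-Ins1KO, -0.43 and -0.79 in Trsp-RIPKO, and -1.15 and -1.07 in TrspFF. In intensity units these were 6.15 and 2.58, against 159.8 and 117.5 in Trsp-RIPKO and 111.5 and 104.1 in TrspFF. Both Trsp-Ins1KO arrays were below the dimmest level called well above background, and no group overlapped another.

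Grp encodes gastrin-releasing peptide, which parasympathetic nerve endings in the pancreas release and which stimulates insulin secretion. Its level was -5.88 and -5.69 in Trsp-Ins1KO, -1.47 and -1.33 in Trsp-RIPKO, and -1.23 and -1.34 in TrspFF. The 4 arrays with signal lay within a narrow band in which Trsp-RIPKO and TrspFF overlapped, and both Trsp-Ins1KO arrays lay far under it. Grpr, the receptor of this peptide, did not enter the fit: its level was -5.75 and -5.24 in Trsp-Ins1KO, -4.30 and -3.68 in Trsp-RIPKO and -5.24 and -5.35 in TrspFF, and only the second Trsp-RIPKO array was well above background.

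Nacad encodes a NAC-alpha domain protein, a relative of the nascent polypeptide-associated complex that is abundant in brain. Its level was -5.84 and -5.11 in Trsp-Ins1KO, -2.29 and -2.29 in Trsp-RIPKO, and -1.55 and -1.57 in TrspFF. It was the one neuron gene of the 4 with a wide gap between Trsp-RIPKO and TrspFF, with Trsp-RIPKO lower. Reep1 shapes tubules of the endoplasmic reticulum in axons, and mutations in the human gene cause a hereditary spastic paraplegia. Its level was -4.72 and -5.56 in Trsp-Ins1KO, -1.55 and -1.69 in Trsp-RIPKO, and -1.99 and -2.03 in TrspFF, so that Trsp-RIPKO was the highest group and Trsp-Ins1KO again showed no signal well above background.

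The glial genes differed among themselves. Sox10, the neural crest transcription factor of Schwann cells, had levels of -3.55 and -4.37 in Trsp-Ins1KO, of -2.82 and -2.51 in Trsp-RIPKO, and of -3.35 and -3.20 in TrspFF. It was dim throughout, and well above background on the 4 arrays of Trsp-RIPKO and TrspFF only. S100b, a calcium-binding protein of Schwann cells, had levels of -2.85 and -2.35 in Trsp-Ins1KO, -1.07 and -1.26 in Trsp-RIPKO, and -1.32 and -1.32 in TrspFF. Here all 6 arrays were well above background, and both Trsp-Ins1KO arrays were lower than the 4 others.

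Ngfr, the p75 neurotrophin receptor of Schwann cells and sympathetic neurons, had levels of -2.22 and -2.75 in Trsp-Ins1KO, -2.04 and -1.84 in Trsp-RIPKO, and -2.10 and -2.09 in TrspFF. All 6 arrays were well above background, and the first Trsp-Ins1KO array was close to TrspFF. Gfap, the glial filament that also marks quiescent pancreatic stellate cells, was read by 3 probes and was well above background on no array. Its levels ran from -5.76 to -5.12 in Trsp-Ins1KO, from -6.01 to -4.54 in Trsp-RIPKO and from -6.49 to -4.59 in TrspFF, so that these arrays give no order of the groups for Gfap.

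**Figure D1:**
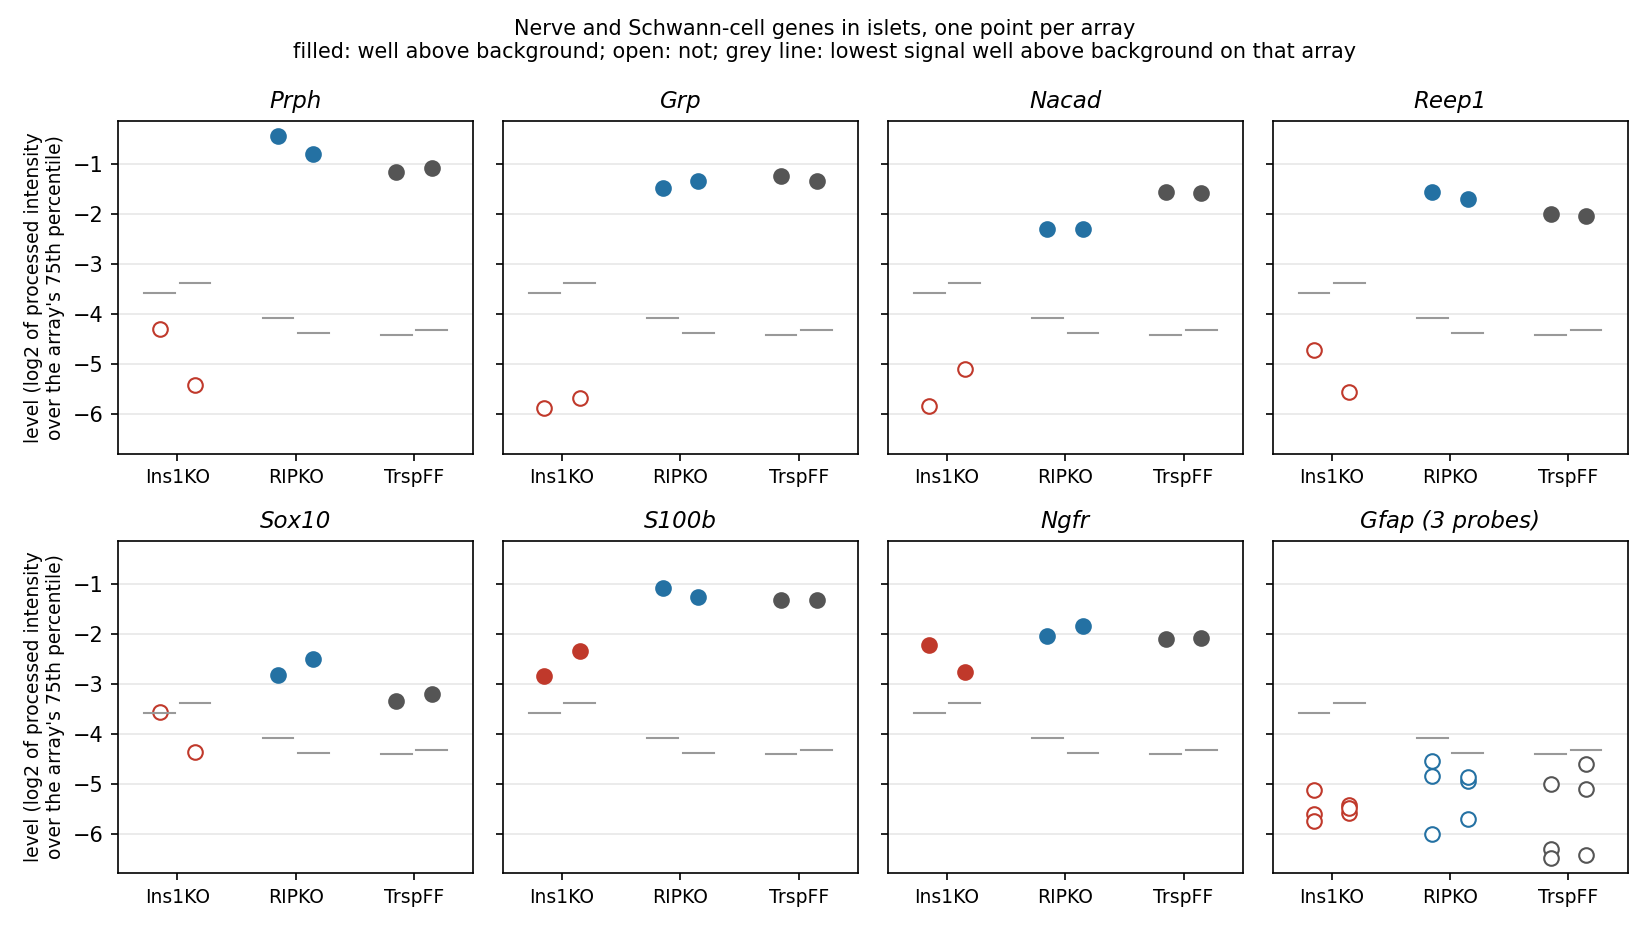
Level of each member gene on each array (log2 of processed intensity over the array's 75th percentile), with Trsp-Ins1KO in red, Trsp-RIPKO in blue and TrspFF in grey, and the 3 probes of Gfap in 1 panel. Filled points were well above background and open points were not, and grey lines mark the dimmest level well above background on that array. Prph, Grp, Nacad and Reep1 drop under the line in both Trsp-Ins1KO arrays, Sox10 lies at or under it, S100b and Ngfr stay above it, and Gfap is under it everywhere.

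As fitted differences of Trsp-Ins1KO against TrspFF on the log2 scale, Prph was at -3.76 (SE 0.37), Grp at -4.50 (SE 0.10), Nacad at -3.91 (SE 0.24) and Reep1 at -3.13 (SE 0.28). Because the dim side has only an upper bound, folds are given as lower bounds: Prph was at least 5.21-fold lower, Grp at least 4.61-fold, Nacad at least 3.79-fold and Reep1 at least 2.79-fold. These bounds set the brighter group's mean against, for each Trsp-Ins1KO array, the higher of the gene's own level and that array's dimmest called level. Sox10 was at -0.69 (SE 0.28), at least 1.15-fold lower, while S100b was at -1.28 (SE 0.18) and Ngfr at -0.39 (SE 0.19).

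Of the 7 fitted members, 5 (all but Sox10 and Ngfr) were past the threshold used for all genes, a Benjamini-Hochberg adjusted p under 0.05 in limma, and all 5 were lower. That threshold called 45.9% of all genes in this comparison, 23.0% as lower and 23.0% as higher, and the arrays of the 2 groups did not overlap for any of the 7 members or for 76.9% of all genes, and since the choice of members used these values nothing is read from their count. The size of the gap depended on how background was handled. With normexp background correction, which adds an offset of 50 intensity units before the log, the difference was -0.72 for Prph, -0.78 for Grp, -0.55 for Nacad, -0.16 for Reep1 and -0.29 for S100b, and it turned to 0.34 for Sox10 and 0.20 for Ngfr.

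Against Trsp-RIPKO, the Trsp-Ins1KO arrays were lower for all 7: Prph by at least 7.35-fold (fitted difference -4.26, SE 0.37), Grp by at least 4.24-fold (-4.38, SE 0.10), Reep1 by at least 3.65-fold (-3.52, SE 0.28), Nacad by at least 2.29-fold (-3.18, SE 0.24) and Sox10 by at least 1.75-fold (-1.30, SE 0.28). S100b differed by -1.43 (SE 0.18) and Ngfr by -0.54 (SE 0.19). All but Ngfr, 6 of 7, were past the threshold, which called 38.7% of all genes here, 19.4% as lower and 19.3% as higher. The arrays did not overlap for any of the 7, nor for 71.8% of all genes. With normexp the difference of Sox10 was 0.14 and that of Ngfr 0.10, both the other way.

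Trsp-RIPKO and TrspFF were closer to each other. The fitted difference was 0.50 (SE 0.37) for Prph, -0.12 (SE 0.10) for Grp, -0.73 (SE 0.24) for Nacad, 0.39 (SE 0.28) for Reep1, 0.61 (SE 0.28) for Sox10, 0.15 (SE 0.18) for S100b and 0.15 (SE 0.19) for Ngfr. None of the 7 was past the threshold in limma, which called 36.4% of all genes, 17.5% as lower and 18.9% as higher. The arrays did not overlap for 6 of the 7, Grp being the exception, and for 77.4% of all genes. Scaling each array to its median shifted every gene by -0.24 in this comparison, and S100b and Ngfr then stood at -0.09 each and Grp and Nacad passed. With the Trsp-Ins1KO arrays left out of the fit, Nacad, Reep1 and Sox10 passed.

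Prph, Grp, Nacad, Reep1 and Sox10 shared the pattern of being well above background on all 4 arrays of Trsp-RIPKO and TrspFF and on neither of Trsp-Ins1KO. Of all 19021 genes, 892 (4.69%) had this pattern and 42 (0.221%) had the reverse one, while 84.6% were well above background on all 6 arrays. Over the 892 the median bound against TrspFF was 1.02-fold lower. Genes without a bound were counted there as unchanged, and bounds in the higher direction were kept. Ordered by that bound, Prph was number 9, Grp 10, Nacad 14, Reep1 25 and Sox10 317. The choice of members used these same levels and flags, so nothing is read from their places. Beside the members, 7 of the 31 other nerve and Schwann-cell genes tested had the pattern, among them Nefl, Nefm, Uchl1, Phox2a, Scn7a and Pou3f1. The pattern alone does not show a fall, since the dimmest called level was higher in Trsp-Ins1KO. Nefm had the pattern with a fitted difference from TrspFF of 0.24, not called.

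The genes closest to each member were found by the root mean square difference of their 6 centred levels, as a description of likeness across 6 arrays only. The members' values in it are those that chose them, and levels not well above background enter as they stand. The nearest to Prph were Vwf, a clotting factor of endothelium (0.336), and Reep1 (0.342). Grp lay nearest to H2-DMb1, an MHC class II peptide loader (0.252), and Lum, a collagen-binding proteoglycan (0.351), and Nacad to Ackr1 (0.463) and Ifi27l2a (0.465). Reep1 lay nearest to Ptn, which encodes the growth factor pleiotrophin (0.222), and to Penk (0.249). For Sox10 the nearest were 6330407A03Rik (0.0787) and Sim1 (0.105), for S100b Xaf1 (0.111) and 8430431K14Rik (0.124), and for Ngfr Oasl2 (0.0354) and Dok2 (0.0544).

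Beyond the members, 39 genes of neurons, axons, Schwann cells and glia were listed, and 31 were tested. In Trsp-Ins1KO against TrspFF, 15 of them fell and 5 rose, with 11 not called, where 45.9% of all genes were called, and with a median difference of -0.22, against -0.01 over all genes. The split depended on the background correction and its offset, since 11 fell and 14 rose with normexp. Normexp moved the split over all genes as well, to 4763 lower and 9192 higher, from 4366 lower and 4371 higher. In Trsp-Ins1KO against Trsp-RIPKO, 14 fell and 5 rose, where 38.7% of all genes were called, with a median of -0.52 against -0.01. Here 11 fell and 11 rose with normexp, which called 3781 of all genes lower and 8330 higher. With median scaling 12 fell and 8 rose. In Trsp-RIPKO against TrspFF, 9 rose and 3 fell, with a median of 0.39 against 0.00 over all genes. These 12 of 31 stand near the 36.4% of all genes called in that comparison, and with median scaling 4 rose and 4 fell. The count of 12 fell whenever 1 array of Trsp-RIPKO or TrspFF was left out, and so did the count over all genes. In such a fit 1 array stands for its group. The differences ran from 0.48 to 0.53 for Tubb3, from 0.48 to 0.52 for Mapt and from -0.529 to -0.505 for Gfra3 with 1 array left out. For Hand2 they ran from 0.37 to 0.56 and for Scn7a from 0.46 to 0.66. Without the filter on dim probes, 5 of 38 of these genes were called in that comparison, and 2692 of 32494 over all genes. Of all Trsp-RIPKO calls against TrspFF named below, leaving out 1 array of these groups ended each except those of Chat and Npy. The count for Trsp-Ins1KO against TrspFF was 13 in place of 20 without the first TrspFF array.

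Of the 19 neuron and axon genes tested beside the members, 9 fell and 4 rose in Trsp-Ins1KO against TrspFF, where 45.9% of all genes were called. Stmn2, a tubulin-binding protein of growing axons, had levels of -2.08 and -2.30 in Trsp-Ins1KO, 0.35 and 0.45 in Trsp-RIPKO, and 0.06 and -0.04 in TrspFF. It was well above background on all 6, fell by 2.20 (SE 0.10, limma adjusted p = 0.000664) against TrspFF, fell by 2.59 (SE 0.10, adjusted p = 0.000424) against Trsp-RIPKO, and fell by 1.04 against TrspFF with normexp. Nefl, the light neurofilament chain, had levels of -5.63 and -4.07, of -1.23 and -1.18, and of -1.89 and -1.83 in the same order. It was at least 3.08-fold lower than in TrspFF (adjusted p = 0.00845) and at least 4.87-fold lower than in Trsp-RIPKO (adjusted p = 0.00593), and the first call was lost with normexp (difference -0.15, adjusted p = 0.129).

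Phox2a, a homeodomain factor of autonomic neurons that was named after its values were seen, had levels of -4.20 and -3.44 in Trsp-Ins1KO, -1.48 and -1.27 in Trsp-RIPKO, and -1.94 and -2.00 in TrspFF, and was at least 2.86-fold lower than in TrspFF (adjusted p = 0.00552). Uchl1, a ubiquitin hydrolase of neurons and endocrine cells, was at least 1.55-fold lower than in TrspFF (adjusted p = 0.00306). With normexp the difference of Uchl1 from TrspFF was 0.12 and not called (limma adjusted p = 0.189), so its call depends on the background correction. Over all genes normexp called 4763 lower and 9192 higher in this comparison, so no direction is read from the sign of 0.12. The offset of 50 units is large beside the scale of Trsp-Ins1KO (122 and 111 units), and smaller beside that of TrspFF (247 and 218). Its part in the signs that turned for dim genes was not tested.

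Other genes of the neuron list rose. Mapt, which encodes tau, was higher in Trsp-Ins1KO than in TrspFF by 1.19 (SE 0.07), Snap25, a SNARE of neurotransmitter and insulin release, by 0.95 (SE 0.08) and Tubb3 by 0.36 (SE 0.07). The largest limma adjusted p of these 3 was 0.0116. All 3 rose in Trsp-RIPKO as well, Tubb3 by 0.50, Mapt by 0.50 and Snap25 by 0.39 with a largest adjusted p of 0.0194, and so did Hand2, a factor of autonomic neurons, by 0.46 (adjusted p = 0.0276). Hand2 fell in Trsp-Ins1KO, by 0.88 (adjusted p = 0.00396). Scaling to the median ended the Trsp-RIPKO calls of Snap25 and Hand2, with differences of 0.16 and 0.22. Snap25 and Mapt are known to be made in beta cells too.

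Of the 12 Schwann-cell and glial genes tested beside the members, 6 fell and 1 rose in Trsp-Ins1KO against TrspFF, where 45.9% of all genes were called. Fabp7, the fatty-acid-binding protein of immature glia, had levels of -2.39 and -2.69 in Trsp-Ins1KO, -0.90 and -1.03 in Trsp-RIPKO, and -1.13 and -1.37 in TrspFF, all well above background. It fell by 1.29 (SE 0.14, limma adjusted p = 0.00327) against TrspFF and fell by 1.57 (adjusted p = 0.00235) against Trsp-RIPKO, and with normexp it fell by 0.21 and fell by 0.52.

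Scn7a, a sodium channel of non-myelinating Schwann cells and some neurons, was at least 1.36-fold lower than in TrspFF (adjusted p = 0.00176) and at least 2.01-fold lower than in Trsp-RIPKO (adjusted p = 0.00095), but stood at 0.34 against TrspFF with normexp. Cnp, a phosphodiesterase of myelinating glia, fell by 1.48 (SE 0.45, adjusted p = 0.0481), a call that 8 alternatives ended. Its difference was -2.17 without the first Trsp-Ins1KO array and -0.78 without the second, which was not well above background. In Trsp-RIPKO against TrspFF, 3 of the 12 Schwann-cell and glial genes tested beside the members rose and 2 fell, where 36.4% of all genes were called. Pou3f1, a factor of promyelinating Schwann cells, rose by 0.80 (adjusted p = 0.0117) and Pmp22, a myelin protein that fibroblasts also make, by 0.63 (adjusted p = 0.0063). Scn7a rose by 0.56 (adjusted p = 0.0294). Of the 2 that fell, Gfra3, a receptor of the GDNF family, had the larger difference and fell by 0.52 (adjusted p = 0.00826). Of the 23 glial genes listed, 8 were too dim to be tested, among them the myelin gene Prx and the neuregulin receptor Erbb3.

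**Figure D2:**
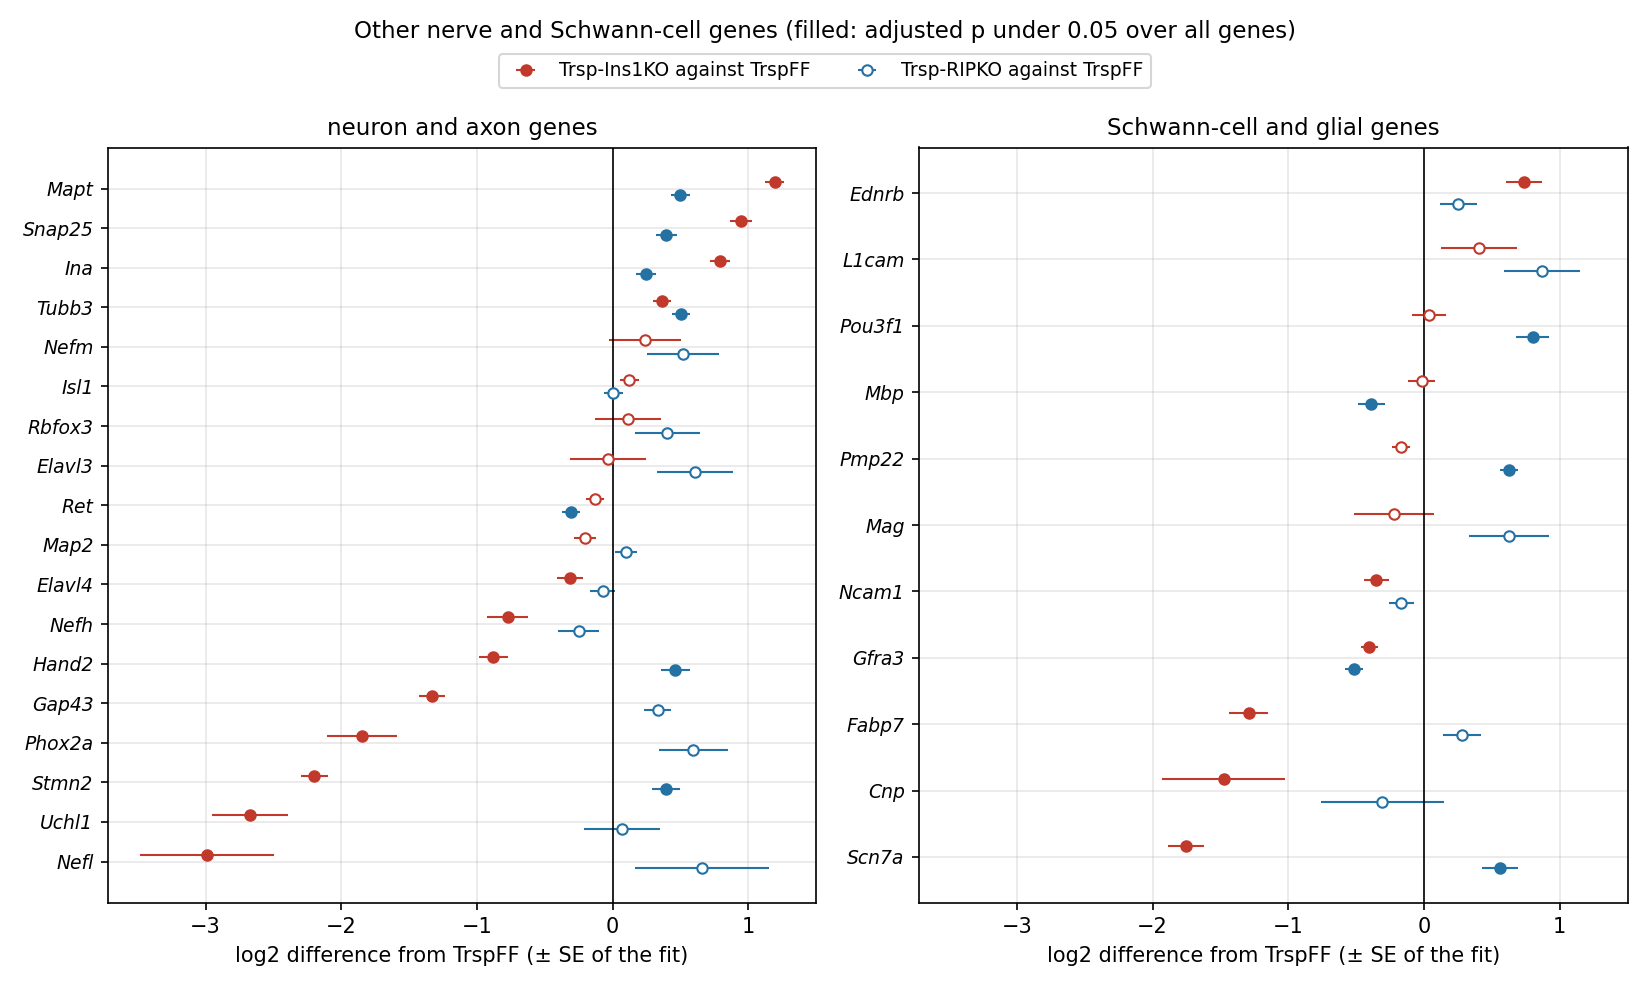
Fitted log2 difference from TrspFF of 29 of the 31 tested nerve and Schwann-cell genes that are no members, with bars of 1 SE, for Trsp-Ins1KO (red) and Trsp-RIPKO (blue). Filled points have a limma adjusted p under 0.05 over all genes. Nefl, Uchl1 and Stmn2 lie lowest in Trsp-Ins1KO on the left and Scn7a, Cnp and Fabp7 on the right, while most Trsp-RIPKO points lie at or above 0.

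Genes of transmitter handling were mixed. Of 11 tested, 4 fell and 2 rose in Trsp-Ins1KO against TrspFF, where 45.9% of all genes were called, with a median of 0.11. Slc18a3, the vesicular acetylcholine transporter, had levels of -3.49 and -3.27 in Trsp-Ins1KO, -2.00 and -1.84 in Trsp-RIPKO, and -2.25 and -2.35 in TrspFF, and fell by 1.08 (SE 0.11, adjusted p = 0.00287) against TrspFF. Slc5a7, the choline transporter that feeds acetylcholine synthesis, was at least 1.84-fold lower (adjusted p = 0.0177, and up to 0.0795 without either TrspFF array). Slc18a2, the vesicular monoamine transporter of sympathetic and endocrine cells, was called lower (adjusted p = 0.00243) but its bound came under 1, so no fold is given, and its second probe was dim on all 6 arrays. All 3 stood above 0 with normexp, at 0.07, 0.22 and 0.30.

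Chat, which makes acetylcholine, did not share the fall. Its level was -3.09 and -2.77 in Trsp-Ins1KO, -1.33 and -1.63 in Trsp-RIPKO, and -3.44 and -3.03 in TrspFF. It rose by 1.75 (SE 0.20, adjusted p = 0.00712) in Trsp-RIPKO against TrspFF, a call that every alternative run kept, and it differed by -1.45 (adjusted p = 0.00593) in Trsp-Ins1KO against Trsp-RIPKO. Ddc, which makes dopamine and serotonin in nerve and islet cells, fell by 0.62 (adjusted p = 0.00367) in Trsp-Ins1KO and fell by 0.38 (adjusted p = 0.0176) in Trsp-RIPKO against TrspFF.

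Of 13 tested genes of peptides and their receptors, Grp included, 5 fell and 1 rose in Trsp-Ins1KO against TrspFF. That stands near the 45.9% of all genes called in this comparison. The median was -0.46, or -0.15 with bounded genes at their bound. Vip, the vasoactive intestinal peptide of parasympathetic endings, had levels of -3.03 and -3.61 in Trsp-Ins1KO, -0.61 and -0.55 in Trsp-RIPKO, and -0.85 and -0.75 in TrspFF. It fell by 2.52 (SE 0.20, adjusted p = 0.00186) against TrspFF and fell by 0.75 with normexp. Penk, the enkephalin precursor, had levels of -3.36 and -3.78, of -0.53 and -0.62, and of -0.58 and -0.72 in the same order, and fell by 2.93 (SE 0.15, adjusted p = 0.000892), and fell by 0.88 with normexp. The second Trsp-Ins1KO array was not well above background for either peptide.

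Tac1, the substance P precursor of sensory nerves, stood at -3.59 and -3.43 in Trsp-Ins1KO, -2.00 and -1.89 in Trsp-RIPKO and -1.41 and -1.33 in TrspFF. It was at least 4.34-fold lower in Trsp-Ins1KO than in TrspFF (adjusted p = 0.000533), and it fell by 0.58 (adjusted p = 0.0122) in Trsp-RIPKO. Npy, the co-transmitter of sympathetic nerves that islet cells can also make, fell by 0.87 (adjusted p = 0.0021) in Trsp-Ins1KO and fell by 1.03 (adjusted p = 0.0033) in Trsp-RIPKO. Calca, the CGRP gene of sensory nerves, was at least 1.39-fold lower in Trsp-Ins1KO than in Trsp-RIPKO (adjusted p = 0.0321), a call that leaving out any TrspFF or Trsp-RIPKO array ended, and stood at 0.32 with normexp.

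Of 13 neurotrophic ligands and receptors tested, 6 rose and 1 fell in Trsp-Ins1KO against TrspFF, where 45.9% of all genes were called, with a median of 0.39. The one that fell was Gfra2, the neurturin receptor that parasympathetic neurons need, with levels of -2.16 and -2.22 in Trsp-Ins1KO, -0.38 and -0.16 in Trsp-RIPKO, and -0.96 and -0.85 in TrspFF. It fell by 1.28 (SE 0.10, adjusted p = 0.00188), and fell by 0.29 with normexp, and in Trsp-RIPKO it rose by 0.63 (adjusted p = 0.0125). Lif, a cytokine that injured nerves and other tissues release, was higher than in TrspFF in both knockouts, by 1.70 (SE 0.33, adjusted p = 0.013) in Trsp-Ins1KO and by 1.55 (SE 0.33, adjusted p = 0.0227) in Trsp-RIPKO. Leaving out either TrspFF array ended both calls, with adjusted p up to 0.0657 in Trsp-Ins1KO and 0.105 in Trsp-RIPKO, and leaving out either Trsp-RIPKO array ended the second.

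Relatives of the structural members in their own protein families moved in both directions. Of 8 intermediate filament genes tested, Prph included, 5 fell and 2 rose in Trsp-Ins1KO against TrspFF, where 45.9% of all genes were called. Vim, the filament of connective tissue and Schwann cells, fell by 0.56 (adjusted p = 0.00384) and Nefh, the heavy neurofilament chain, fell by 0.77 (adjusted p = 0.0136), while Ina (alpha-internexin) rose by 0.79 (adjusted p = 0.00236) and Nes (nestin) by 0.70 (adjusted p = 0.00353). Nefm, the middle chain, was not called (0.24, adjusted p = 0.491). Sync fell by 0.38 (adjusted p = 0.0187) but stood at 0.31 with normexp.

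Of the other 5 REEP genes, Reep6 rose by 0.83 (adjusted p = 0.00293) and Reep4 by 0.39 (adjusted p = 0.0407), and Reep2 fell by 0.68 (adjusted p = 0.0253) and Reep5 fell by 0.41 (adjusted p = 0.0336). Reep3 was not called (0.19, adjusted p = 0.0898). Reep2 fell in Trsp-RIPKO as well, by 0.92 (adjusted p = 0.0159), and with normexp its Trsp-Ins1KO difference was -0.01 (adjusted p = 0.954). The 3 ubiquitous subunit genes of the nascent polypeptide-associated complex had 1 call, with Naca at -0.45 (adjusted p = 0.0258), Btf3 at 0.09 (adjusted p = 0.316) and Btf3l4 at 0.16 (adjusted p = 0.112). Leaving out 1 array ended the calls of Naca, Nefh, Reep4, Reep5, Reep2 and Sync.

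Markers of other cell types also differed between the groups, some in the same direction as the members and some in the other. Their part in the differences of the nerve genes was not tested. Of all genes, 45.9% were called in Trsp-Ins1KO against TrspFF and 36.4% in Trsp-RIPKO against TrspFF, beside which the counts of markers stand. Of 9 fibroblast and stellate-cell markers, 8 fell and 1 rose in Trsp-Ins1KO against TrspFF, and 8 rose and 0 fell in Trsp-RIPKO, with medians of -0.55 and 0.64. Their summed level was 5.74 and 5.92 times the 75th percentile in Trsp-Ins1KO, 21.9 and 21.8 times in Trsp-RIPKO, and 13.9 and 14.3 times in TrspFF, and 7 of the 9 were well above background in Trsp-Ins1KO and all 9 in Trsp-RIPKO and TrspFF. Lum was at least 7.64-fold lower (adjusted p = 0.000321) and Dcn, a second matrix proteoglycan, fell by 3.03 (adjusted p = 0.000496) in Trsp-Ins1KO against TrspFF. The summed level of the 15 tested Schwann-cell and glial genes, Sox10, S100b and Ngfr included, was 11.9 and 10.9 in Trsp-Ins1KO, 13.6 and 12.9 in Trsp-RIPKO, and 14.1 and 14.3 in TrspFF. For the 22 tested neuron and axon genes, Prph, Nacad and Reep1 included, the sum went the other way. It was 242.8 and 264.7 in Trsp-Ins1KO, 179.8 and 186.3 in Trsp-RIPKO, and 142.7 and 144.0 in TrspFF. The mean log2 level of these 22 was lowest in Trsp-Ins1KO, at -1.454 and -1.375. That mean was -0.143 and -0.073 in Trsp-RIPKO, and -0.409 and -0.358 in TrspFF.

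Not every tissue around the islet went down in Trsp-Ins1KO. The 8 endothelial markers had a median of 0.81 with 6 risen and 0 fallen, and the 7 macrophage markers a median of 0.40 with 4 risen and 0 fallen. Of the 9 acinar enzyme genes, all 9 rose in Trsp-Ins1KO, with a median of 1.56, and in Trsp-RIPKO, with a median of 1.70. Their summed level was 8.86 and 8.64 in Trsp-Ins1KO, 7.48 and 8.07 in Trsp-RIPKO, and 2.73 and 2.79 in TrspFF. Of 4 tested smooth muscle markers 1 rose and 1 fell in Trsp-Ins1KO and 3 rose in Trsp-RIPKO, and of 5 small intestine markers 2 rose in Trsp-Ins1KO and 3 in Trsp-RIPKO. Alpha- and delta-cell markers had 4 of 7 fallen, with a median of -0.50, and beta-cell markers 6 of 10 risen and 2 fallen, with a median of 0.52.

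**Figure D3:**
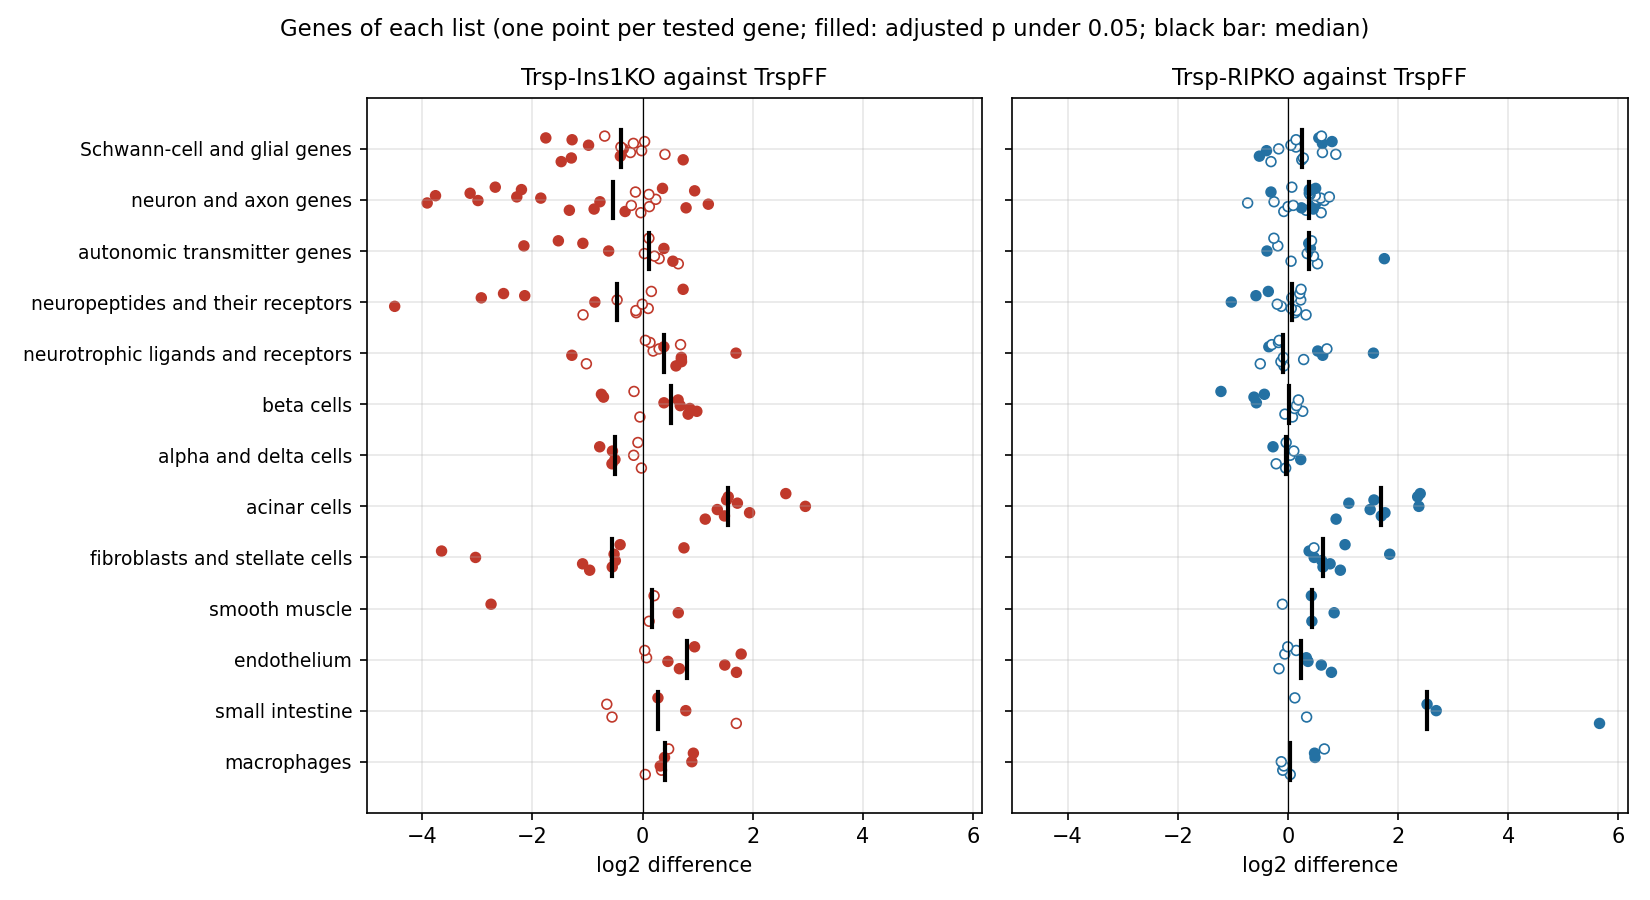
Fitted log2 difference from TrspFF of the tested genes of each list, members included, in Trsp-Ins1KO (left, red) and Trsp-RIPKO (right, blue). Each point is a gene, filled where its limma adjusted p is under 0.05, and black bars are medians. In Trsp-Ins1KO the neuron, peptide, fibroblast and smooth muscle lists each reach under -2.5, though the median of the smooth muscle list was 0.16. Acinar genes lie above 0 in both knockouts, and fibroblast genes lie above 0 in Trsp-RIPKO.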

How the data were processed

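Per the labels, total RNA of islets was labelled with Cy3. The deposited scanner files, read per the file headers with Agilent Feature Extraction, give for each spot a processed intensity, background-subtracted and not scaled between arrays, and the median intensities of spot and local background. They also give 0 or 1 flags (other values in the deposited files) for signals well above background, saturation (0 spots) and outliers. A second deposited table holds log2 values of the authors, centred on each probe, and how they were scaled is not given in the sources. Its 39485 probes had column medians of -0.08 and -0.05 under the names of Trsp-Ins1KO, 0.01 and -0.03 under those of Trsp-RIPKO, and 0.09 and 0.14 under those of TrspFF. Over 19486 probes its columns named TrspFF correlated with the scanner files of Trsp-Ins1KO at 1.00 and with their own at -0.27 and -0.47.

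Here log2 processed intensity minus each array's 75th percentile was used, without control and outlier spots, with spots of a probe averaged (39426 of 39429 probes). RefSeq named 66.1% of probes through the GRCm38.p6 table, and the others kept the array's name. Probes well above background on both arrays of some group were fitted, and the brightest of them stood for its gene. Group means over all 6 arrays were fitted in limma 3.58.1 (R 4.3.3) with lmFit and eBayes, two-sided, with Benjamini-Hochberg adjustment over all 19021 genes, and the script was tested on simulated data. Plots used Python 3.11.15, pandas 2.3.3 and matplotlib 3.10.9. The number of arrays, 2 a group, limits the precision. Alternatives were normexp (on median intensities, since the files hold no mean intensities), quantile and median scaling, other probe filters, the mean over probes, the compared groups alone, a trended robust fit, the replicate number as a block, each array left out, and the authors' table under both readings of its names.

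The members and the gene lists were chosen with earlier results of these data known. Named in the text are the members, called genes of each list by size of difference (at most 4 per comparison), all other intermediate filament, REEP and nascent polypeptide-associated complex genes, at most 2 markers of each other cell type, and the 2 genes nearest to each member. Phox2a, Mapt, Snap25, Tubb3 and Hand2 in Trsp-Ins1KO were added after their values were seen. A few genes that the rule names are not reported here, and counts over lists include them. Same-numbered samples of 2 groups deviated together hardly at all (r of 0.09, 0.08 and 0.07 for the 3 pairs of groups), so that the numbers were not taken as pairs.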

Additional observations from a re-analysis of the deposited data

Results flagged for a closer look

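For 5 members every Trsp-Ins1KO array lay under both TrspFF arrays and every Trsp-RIPKO array above them. The share of all genes with this order was not counted, so nothing is read from the count of members. Arrays did not overlap for 76.9% of all genes in Trsp-Ins1KO against TrspFF and for 77.4% in Trsp-RIPKO against TrspFF. None of the 5 passed the threshold used for all genes in Trsp-RIPKO against TrspFF, and Sox10 and Ngfr did not in Trsp-Ins1KO against TrspFF. The difference of Trsp-Ins1KO minus Trsp-RIPKO was -4.26 for Prph, -3.52 for Reep1, -1.30 for Sox10, -1.43 for S100b and -0.54 for Ngfr on the log2 scale. Prph, Reep1 and Sox10 were not well above background in Trsp-Ins1KO, so that only bounds hold for them: at least 7.35-fold, 3.65-fold and 1.75-fold lower than in Trsp-RIPKO. Both knockouts were set against the same 2 TrspFF arrays, the members were chosen with these values in view, and the difference in response was not tested. For S100b and Ngfr the Trsp-RIPKO side turned with scaling to the median, to -0.09 each. For Sox10 and Ngfr the Trsp-Ins1KO side turned with normexp, to 0.34 and 0.20.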

How the results depend on the processing

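Of 1499 values of single genes under the alternatives other than the table's own names, 1286 kept sign and side of the threshold, 177 kept the sign and lost the call, 20 kept the sign and gained it, and 16 changed sign. Of 96 under those names, the counts were 20, 22, 4 and 50. Where nothing else is said, the cause was not tested. All genes called were 13955 with normexp (4763 lower, 9192 higher) and 13943 without the filter on dim probes (3701 lower, 10242 higher) in Trsp-Ins1KO against TrspFF, against 8737 (4366 lower, 4371 higher) as reported. In Trsp-Ins1KO against Trsp-RIPKO they were 12111 with normexp (3781 lower, 8330 higher) and 11645 without the filter, against 7365 (3696 lower, 3669 higher), and in Trsp-RIPKO against TrspFF 2692 without the filter, against 6921 (3329 lower, 3592 higher). Median scaling split the calls into 4805 lower and 3432 higher, 2351 and 5702, and 7264 and 2013 in these 3 comparisons, since it shifted every gene by -0.07, 0.17 and -0.24. Members past the threshold in Trsp-RIPKO against TrspFF were 3 with normexp, 2 with median scaling, 3 with the compared groups alone, 1 in a trended robust fit and 6 under the table's own names. With probes well above background on all arrays, of which 2 members had one, 1 passed in Trsp-Ins1KO against TrspFF and 2 against Trsp-RIPKO, where 0 passed under the table's own names. Other nerve genes called in Trsp-RIPKO against TrspFF were 22 with normexp, 5 without the filter and 19 under the table's own names, and 12 under those names in Trsp-Ins1KO against Trsp-RIPKO. Leaving out each array in turn gave 3791 to 8242, 4176 to 6578 and 862 to 7692 calls over all genes for these comparisons in the same order, 5 to 7, 5 to 7 and 0 to 3 among members, and 13 to 21, 15 to 20 and 0 to 17 among other nerve genes. The first range was 3791 without the first TrspFF array and 4304 without the second, the second 4316 without the first Trsp-RIPKO array and 4176 without the second, and the third 862, 1347, 2874 and 1534 without these 4 arrays in the same order. With the replicate number as a block, calls were 8489, 7050 and 6598 over all genes, 5, 6 and 0 among members, and 18, 18 and 14 among other nerve genes in the same order, and it ended 5 of the named calls (Cnp and Reep4 in Trsp-Ins1KO against TrspFF, Nefh against Trsp-RIPKO, and Ina and Slc18a3 in Trsp-RIPKO) and no other.

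With normexp background correction, the called differences of named genes that turned round in Trsp-Ins1KO against TrspFF were Cnp at 0.19, Scn7a at 0.34, Slc18a2 at 0.30, Slc18a3 at 0.068, Slc5a7 at 0.22, Sync at 0.31 and Uchl1 at 0.12. Those in Trsp-Ins1KO against Trsp-RIPKO were Calca at 0.32, Slc18a2 at 0.29, Sox10 at 0.14 and Sync at 0.11. Uncalled differences of members turned too: Sox10 at 0.34 and Ngfr at 0.20 against TrspFF, and Ngfr at 0.10 against Trsp-RIPKO.

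Under the own names of the authors' deposited table, every difference of Trsp-Ins1KO against TrspFF changes sign by construction, and the called ones of named genes were Cnp at 1.48, Cntfr at -0.71, Ddc at 0.62, Erbb2 at -0.70, Fabp7 at 1.29, Gfra2 at 1.28, Grp at 4.50, Ina at -0.79, Lif at -1.70, Naca at 0.45, Nacad at 3.91, Nefh at 0.77, Nefl at 2.99, Nes at -0.70, Npy at 0.87, Penk at 2.93, Prph at 3.76, Reep1 at 3.13, Reep2 at 0.68, Reep4 at -0.39, Reep5 at 0.41, Reep6 at -0.83, S100b at 1.28, Scn7a at 1.76, Slc18a2 at 2.15, Slc18a3 at 1.08, Slc5a7 at 1.53, Stmn2 at 2.20, Sync at 0.38, Tac1 at 2.14, Uchl1 at 2.67, Vim at 0.56 and Vip at 2.52. The called differences that turned in Trsp-Ins1KO against Trsp-RIPKO were Grp at 0.12, Ina at -0.25, Nacad at 0.73, Nefh at 0.25, Nes at -0.18, Slc18a2 at 0.18 and Tac1 at 0.58. Those in Trsp-RIPKO against TrspFF were Ddc at 0.24, Ina at -0.54, Lif at -0.14, Mapt at -0.69, Snap25 at -0.55 and Tac1 at 1.56, and uncalled ones of members were Grp at 4.38 and Nacad at 3.18. These follow from the exchange of the 2 groups' columns. Faint signal limits the rest: probes under the dimmest called level have only a bound.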
